A study of Drosophila melanogaster with 2 samples.

Results

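Among the 30000 regions called on pooled reads from a chromatin immunoprecipitation of the transcription factor Sima, 3335 had their summit in protein-coding sequence more than 500 bp from any annotated start site. Of these, 458 also had a summit within 100 bp in the separate list of each replicate. Those 458 coding regions are described here. They were chosen by the measured summit positions in the 3 lists, so their presence in both replicates is a description and not a finding. Whole Drosophila melanogaster embryos were used, 0 to 24 h old and of both sexes, from a stable transgenic line in which GFP is fused to the C terminus of the sima RB isoform. Chromatin was sonicated to 200 to 800 bp and precipitated with an antibody against GFP, so the tagged transgene product was measured, averaged over all cell types and stages of the embryo. There were 2 biological replicates of this 1 group, no control sample was analysed here, and no oxygen level is given in the labels. With 2 samples of 1 group, no test across samples was possible, and all values below are descriptions.

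Sima is the fly ortholog of the alpha subunit of hypoxia-inducible factor. It belongs to the bHLH-PAS family, pairs with Tango, and the pair binds the short hypoxia response element, whose core reads ACGTG or GCGTG on one strand. At normal oxygen the prolyl hydroxylase Hph marks Sima for destruction through the Vhl ubiquitin ligase. When oxygen falls, Sima is stable and its target genes in glycolysis, growth control and tracheal branching are switched on. Regulatory regions bound by transcription factors usually lie at promoters, in introns or between genes, while a coding exon must also keep its protein sequence.

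The summits below are a selection of regions with strong signals or in genes of the oxygen response. They were not taken strictly by rank, and the strongest region, in otp, is not printed. Each sequence is the 101 bases centred on the summit, from the Release 6 genome (dm6), written 5′ to 3′ on the coding strand of the host gene. Pde1c (chr2L:11816529-11816629, minus strand) and l(3)mbn (chr3L:6124777-6124877, minus strand) are in the list that passed the authors' threshold on the irreproducible discovery rate (IDR). RhoGAP71E (chr3L:15589757-15589857, plus strand) and spi (chr2L:19568280-19568380, minus strand) are among the strongest below it. The Hph summits (chr3R:5265508-5265608 and chr3R:5266904-5267004, both plus strand) and the scyl summit (chr3L:11253683-11253783, plus strand) lie in the oxygen sensor and in a hypoxia target. Capitals in Pde1c mark the words AGATGGCGC and AGGTGGCGC, read on either strand, which resemble the core of the binding motif of the insulator protein CTCF. In spi and RhoGAP71E they mark the hypoxia core on either strand, and the other sequences held neither word. Of the 12 strongest regions below the IDR list, 5 held that core, so printing spi and RhoGAP71E shows it more often than it occurs there.
Pde1c: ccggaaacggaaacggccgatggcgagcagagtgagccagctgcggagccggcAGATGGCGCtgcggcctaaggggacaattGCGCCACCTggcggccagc
l(3)mbn: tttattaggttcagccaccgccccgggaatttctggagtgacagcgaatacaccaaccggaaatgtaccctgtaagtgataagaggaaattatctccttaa
RhoGAP71E: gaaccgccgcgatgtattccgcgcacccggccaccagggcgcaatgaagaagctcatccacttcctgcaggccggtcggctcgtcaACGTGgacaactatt
spi: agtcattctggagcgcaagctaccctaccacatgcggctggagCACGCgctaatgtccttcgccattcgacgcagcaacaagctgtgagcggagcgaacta
Hph, first summit: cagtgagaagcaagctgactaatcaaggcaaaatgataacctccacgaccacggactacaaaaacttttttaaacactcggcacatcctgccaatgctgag
Hph, second summit: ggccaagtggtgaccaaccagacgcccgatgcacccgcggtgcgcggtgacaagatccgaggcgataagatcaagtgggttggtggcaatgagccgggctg
scyl: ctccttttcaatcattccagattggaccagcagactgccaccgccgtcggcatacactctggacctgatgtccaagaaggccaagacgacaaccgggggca

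Each deposited region carries a signal value from the peak caller, whose scale the labels do not state. Signals are therefore given as the rank in the region's own list, where 1 is the strongest of 30000, and as a ratio, which divides the signal by the median of its list. A ratio near 1 marks the middle of a list that the authors deposited as peaks together with background. Depth is unknown, because no read counts accompany the lists. Intervals are 95% Wilson intervals over regions and cover counting error only.

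The share that met the matching rule is given by class of region as a description, since the rule set it. Of all 30000 pooled regions, 6921 (23.1%) had a summit within 100 bp in both replicate lists, against 13.7% of the coding regions. The share was 16.7% in untranslated regions, 20.4% between genes, 22.5% in introns and 29.8% within 500 bp of a start site. Taken singly, 1627 coding regions (48.8%) had a match in replicate 1 and 1465 (43.9%) in replicate 2. The coding class was also the weakest in the pooled list, with a median rank of 18369, against 15264 for introns and 11430 near start sites.

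At like rank, the share of coding regions found in both replicates lay near that of the other classes. At ranks 5001 to 10000, 192 of 477 coding regions matched (40.3%, interval 35.9 to 44.7), against 38.2% in introns, 39.9% between genes and 35.3% near start sites. At ranks 10001 to 20000 it was 13.3% for coding regions and between 11.7% and 13.1% for the others. At ranks 20001 to 30000 it was 1.31% for coding regions, against 1.34% between genes, 1.77% near start sites and 2.07% in introns. The widest gap was at ranks 1273 to 5000, where the coding share was the lowest of these classes, at 73 of 126 regions (57.9%, interval 49.2 to 66.2), against 63.7% near start sites, 67.4% in introns and 72.9% between genes. The intergenic interval in that range was 68.7 to 76.8. All these regions come from the same 2 libraries and the rule set the share, so a difference between classes was not tested.

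**Figure D1:**
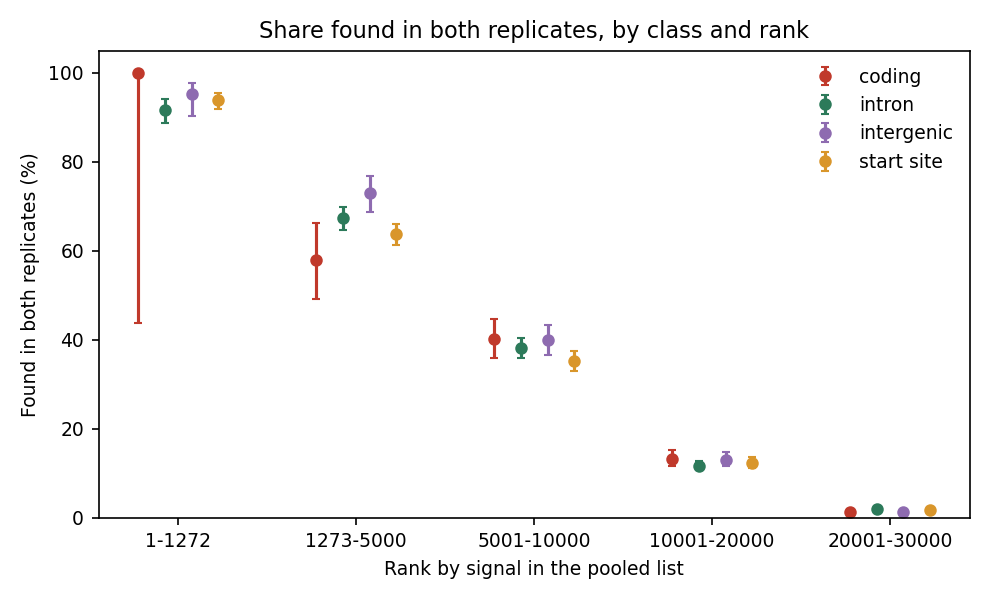
Share of pooled regions with a summit within 100 bp in both replicate lists (%), by class of region and by rank in the pooled list, with 95% Wilson intervals. The coding points lie with the other classes at each rank from 5001 down, and fall from 40.3% at ranks 5001 to 10000 to 1.31% at ranks 20001 to 30000; the first range holds 3 coding regions.

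Few coding regions were strong. The IDR list is the 1272 strongest pooled regions, or 4.24% of all of them, and 3 of the 458 coding regions (0.655%) were in it, in otp, Pde1c and l(3)mbn. Among regions found in both replicates, the list held 369 of 2466 intronic, 138 of 1030 intergenic (13.4%) and 659 of 2692 start site regions (24.5%). The rule did not use this list, but it did use the pooled regions the list was taken from.

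The strongest coding region lay in otp, which encodes a homeodomain transcription factor of the nervous system. It spanned 2R 20884492 to 20884674 and ranked 77 in the pooled list. Its ratio was 5.60 in replicate 1 (rank 147) and 11.6 in replicate 2 (rank 58), or 8.61 ± 4.26 (SD, n = 2). Its summit lay in the last of 7 coding exons, 4647 bp from the nearest start site. The other regions over otp, an intronic one of rank 10831 and one of rank 12677 near its start site, were not found in both replicates.

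The second lay in Pde1c, which encodes a calmodulin-dependent cyclic nucleotide phosphodiesterase, at 2L 11816499 to 11816653. Its ratio was 4.83 in replicate 1 (rank 204) and 5.33 in replicate 2 (rank 353), or 5.08 ± 0.354 (SD, n = 2). The summit lay in the last of 8 coding exons, 99.5% of the way along the coding sequence and 187717 bp from the next IDR peak. With 183 bp for otp and 155 bp for Pde1c, these were the narrowest of the 458 regions; the other 456 were all 396 bp wide.

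The third lay in l(3)mbn, a gene named for the blood cell tumours of its mutants, at 3L 6124629 to 6125024. Its ratio was 3.13 in replicate 1 (rank 618) and 3.60 in replicate 2 (rank 764), or 3.37 ± 0.331 (SD, n = 2). The summit lay in coding exon 5 of 6, 571 bp from the nearest start site. These 3 regions were the ones that ranked within 1272 in both replicates, and the ones with a ratio above 2 in both.

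The next 12 in pooled rank lay in RhoGAP71E, CG5746, spi, CG2865, Pvr, St3, E2f1, CG7564, SF1, Tsp97E, scyl and Hr96, at ranks 1654 to 2893. Their ratios ran from 0.991 to 2.19 in replicate 1, with a median of 1.80, and from 0.925 to 2.82 in replicate 2, with a median of 1.41. The replicates did not order them alike, with 8 higher in replicate 1 and 4 higher in replicate 2.

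RhoGAP71E, which encodes a GTPase-activating protein, led this group with ratios of 1.51 in replicate 1 and 2.82 in replicate 2. The region in spi, which encodes the main embryonic ligand of the EGF receptor, spanned 2L 19568132 to 19568527 and had ratios of 1.49 and 1.94. It lay near the end of the single coding exon of the gene, while the start sites of spi held stronger regions as well as weaker ones. The strongest, at rank 146, just missed the 100 bp limit, with its nearest replicate 1 summit at 108 bp (ratio 3.55). Its nearest replicate 2 summit lay at 1 bp (ratio 9.09). The regions at ranks 655 and 1652 were found in both replicates. Pvr, the receptor for PDGF- and VEGF-like factors, had ratios of 1.85 and 1.67 in the last of its 18 coding exons. E2f1, a transcription factor that drives entry into S phase, had ratios of 1.45 and 1.21 in its first coding exon. SF1, a factor in branch point recognition during splicing, had 1.87 and 1.09.

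In St3, a sulfotransferase gene, the ratio was 2.19 in replicate 1 and 0.978 in replicate 2, so the region was strong in 1 library and at mid-list in the other. In Hr96, a nuclear receptor gene, it was 0.991 and 1.08, at mid-list in both, although its pooled rank was 2893. Regions in CG5746, Hr96 and the tetraspanin gene Tsp97E lay 801, 671 and 200 bp from a separate IDR peak. Among all 458 regions, 16 (3.49%) lay within 1000 bp of another IDR peak, against 54 (1.88%) of the 2877 coding regions not found in both, 3.23% of all pooled regions and 4.74% of the intronic regions found in both.

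**Figure D2:**
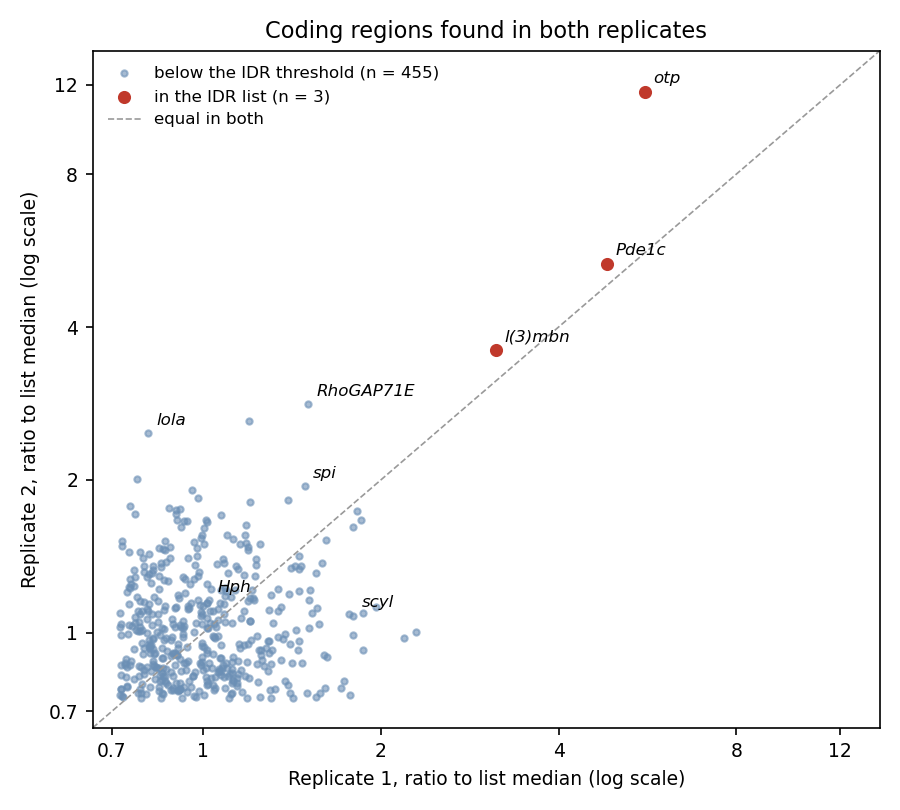
Signal of the 458 coding regions in each replicate, as the ratio to the median of that replicate's list (both axes on a log scale); each point is 1 region. The 3 regions of the IDR list stand apart at upper right, otp well above the line of equality, and the other 455 form a cloud between 0.724 and 2.82 with no visible slope.

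The strength of the coding regions was hardly ordered alike in the replicates. The rule held the replicate summits within 100 bp of the pooled one. Within that limit the median distance was 19 bp in replicate 1 and 25 bp in replicate 2, and every region was matched to a summit of its own. Over the 458 regions the median ratio was 0.971 in replicate 1 and 0.987 in replicate 2. Of these regions, 34 ranked within 5000 in replicate 1, 50 in replicate 2, and 9 in both. Both ratios were above 1 in 98 regions (21.4%), against 46.7% of the intergenic, 51.6% of the intronic and 63.5% of the start site regions found in both replicates. At like pooled rank the gaps were smaller, but the coding share was still the lowest at ranks 1273 to 5000 and 5001 to 10000. In the first range it was 65.8% for coding, 76.0% for intronic and for intergenic, and 78.5% for start site regions. In the second it was 20.3% for coding, 28.9% for intronic, 27.2% for intergenic and 33.5% for start site regions. At ranks 10001 to 30000 it was 4.21% (8 of 190 regions), 3.91%, 2.37% and 6.72% in the same order. The ratios differed by more than 1.5 times in 97 regions and by more than 2 times in 18.

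Spearman's correlation of the ratios between replicates, across regions that share the same 2 libraries, was 0.05 for the 458 coding regions. It was 0.47 for the intergenic, 0.50 for the intronic and 0.57 for the start site regions. Without the regions of the IDR list it was 0.03 for coding regions, 0.23 for intergenic, 0.25 for intronic and 0.20 for start site regions. Within ranges of pooled rank it was below 0 in all 4 classes, -0.42 for coding regions and -0.25 for intronic ones at ranks 1273 to 5000. At ranks 5001 to 10000 it was -0.41 for coding, -0.38 for intronic, -0.46 for intergenic and -0.41 for start site regions. The pooled rank combines both replicates, so within such a range their values are not free of each other.

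The pooled list placed most coding regions above their place in either replicate. The pooled ratio had a median of 1.21, and the pooled rank was better than both replicate ranks in 299 of 458 regions (65.3%). That share was 49.7% for the intronic and 44.2% for the start site regions found in both replicates. At ranks 5001 to 10000 it was 69.8% for coding regions, 63.6% for intronic, 63.6% for intergenic and 62.7% for start site regions. At ranks 1273 to 5000 it was 60.3% for coding regions, 43.8% for intronic, 45.5% for intergenic and 42.3% for start site regions. The classes thus lay closer together in the first of these ranges but not in the second.

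The few regions named here near the limits of the rule had ratios on both sides of 1, and were not compared with the rest. Just inside the 500 bp limit, Gr59e lay 505 bp from a start site with ratios of 0.913 and 0.796, and qkr58E-1 lay at 513 bp with 1.18 and 1.56. Just outside it, CG12016 lay at 499 bp with 0.913 and 1.02. Just inside the 100 bp limit on the match, qin had its farther replicate summit at 100 bp with ratios of 0.856 and 0.823. Just outside, Ufd1 had it at 101 bp with ratios of 0.965 and 0.789.

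A gene of the HIF pathway, Hph, and the hypoxia targets scyl and InR held coding regions, all below the IDR threshold. Of 12369 protein-coding genes with coding sequence more than 500 bp from any start site, here called eligible, 445 (3.6%) held at least 1 of the regions. Of the 8 eligible genes of the HIF pathway, Hph held 2 regions and the other 7 held none, sima and its partner tgo among them. Of 12 listed hypoxia target genes, scyl, Hph and InR held a region.

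Hph encodes the prolyl hydroxylase that senses oxygen and marks Sima for degradation, and in flies and mammals such enzymes are themselves hypoxia-induced. Its first region, at 3R 5265360 to 5265755, had ratios of 1.02 in replicate 1 and 1.16 in replicate 2, or 1.09 ± 0.0952 (SD, n = 2), and ranked 2974 in the pooled list. The second, at 3R 5266756 to 5267151, had ratios of 0.804 and 1.11, or 0.958 ± 0.218 (SD, n = 2), and ranked 10113. The first ranked 14114 in replicate 1 and 9892 in replicate 2, and the second 24539 and 11169, so the second was in the lower part of the replicate 1 list. They lay 619 and 2015 bp from the nearest start site, which is that of the shorter Hph transcripts, and neither summit had a hypoxia core within 50 bp. None of the 8 other pooled regions over or beside Hph was found in both replicates.

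The gene scyl encodes an inhibitor of TOR signalling related to mammalian REDD1 and is induced by hypoxia. Its region, at 3L 11253535 to 11253930, had ratios of 1.79 in replicate 1 and 1.08 in replicate 2, or 1.44 ± 0.505 (SD, n = 2). It lay at the start of the last coding exon, and 3 further regions of scyl were found in both replicates: at the start site (rank 2181), in the 3′ untranslated region (rank 1669) and beyond its end (rank 4140). The region in InR, the insulin receptor gene, had ratios of 1.77 and 0.753 and lay in its first coding exon. The 2 regions over coding sequence of sima were not found in both replicates, while the introns of sima held regions of ranks 157 and 264 that were.

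**Figure D3:**
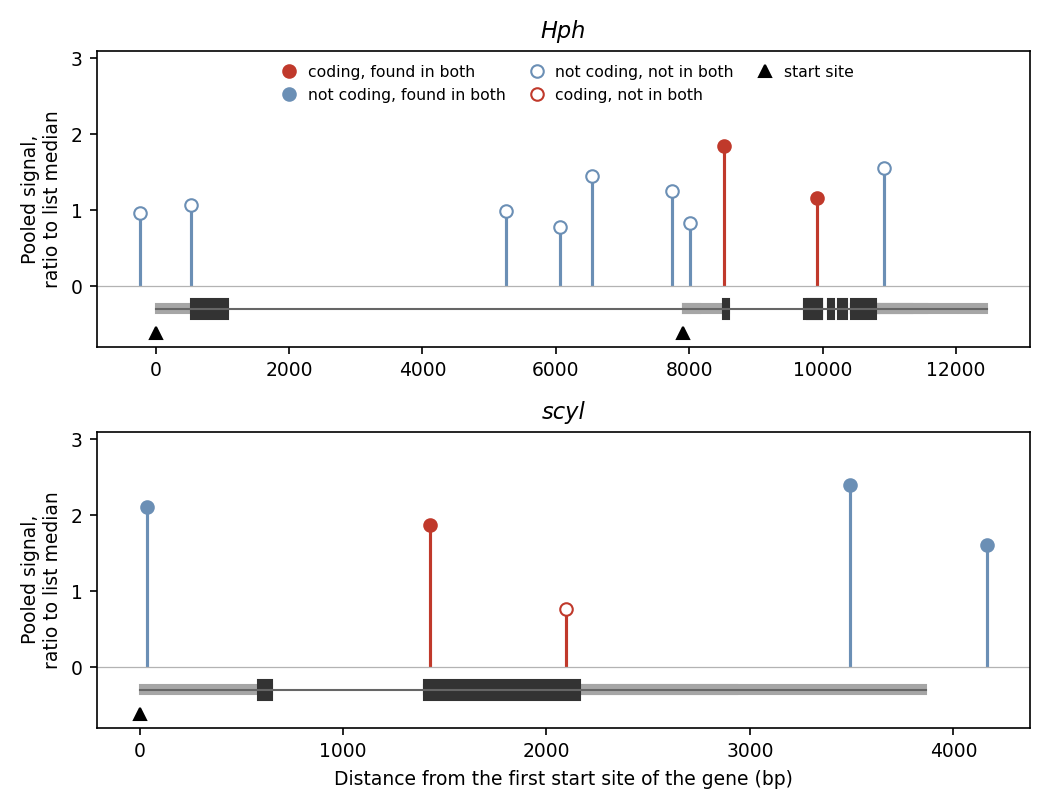
Pooled regions over Hph and scyl, by distance of the summit from the first start site of the gene (bp) and signal as the ratio to the pooled list median; grey bars are exons, dark bars coding sequence and triangles start sites. Red filled points are the coding regions found in both replicates, at ratios of 1.84 and 1.16 in Hph and 1.87 in scyl, where start site and 3′ regions reach 2.11 and 2.40.

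Across genes the regions were spread singly. There were 433 genes with 1 region, 11 with 2 and 1, lola, with 3. The gene lola encodes a family of BTB zinc finger proteins through alternative last exons. Its strongest region, in such an exon at 2R 10522739 to 10523134, had ratios of 0.806 and 2.48. The others had ratios of 0.823 and 1.33, and of 1.01 and 0.852, and 4 more coding regions of lola were not found in both replicates.

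The counts by function are to be read beside the 3.6% of all eligible genes, and beside the length of each list, since 10.8% of genes with over 4000 bp of eligible sequence held a region and 1.76% of those with 1000 bp or less. Ribosomal protein genes of the cytoplasm held 5 regions in 59 eligible genes (8.47%), in 16.9 kb of eligible sequence. The strongest were in RpL8, with ratios of 0.880 and 1.41, and in RpL27, with 1.61 and 0.778. In neither was the ratio above 1 in both replicates. Polycomb and Trithorax genes, which maintain chromatin states, held 4 regions in 23 genes (17.4%) with 95.5 kb of eligible sequence, or 41.9 per Mb, against 24.8 per Mb over all genes. The strongest was in the chromatin remodeller gene kis, with ratios of 0.917 and 1.03. Next were the Brahma complex gene osa, with 0.850 and 1.37, and the histone methyltransferase gene ash1, with 0.887 and 0.913. Each count here rests on 5 regions or fewer, and density varied widely between lists. It was 296 per Mb in the ribosomal protein genes and 76.6 in the segmentation genes. In the matrix genes it was 13.4, and in the motor and large cytoskeletal genes 12.6.

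Among 22 segmentation genes, the gene for the secreted signal hh held a region with ratios of 1.22 and 1.29, and the gap gene kni one with 1.15 and 1.33. Of 13 matrix genes, Mp, which encodes a collagen of the XV and XVIII type, had ratios of 1.01 and 1.14, and SPARC had 1.01 and 1.14 as well. The motor and large cytoskeletal genes held 2 regions in 18 genes, in the dynein heavy chain gene Dhc64C with ratios of 0.888 and 0.823 and in the spectraplakin gene shot with 0.829 and 0.911. Cuticle protein genes held 2 in 94, in Cpr51A with 1.28 and 0.932 and in Cpr50Cb with 1.04 and 0.910.

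A single region was held by the bHLH-PAS list (tai, a steroid receptor coactivator, with 1.30 and 0.743), chaperones (Hsc70-1, with 0.981 and 1.29), muscle structure (bt, the giant protein projectin, with 0.858 and 0.969), the Notch pathway (kuz, an ADAM protease, with 1.09 and 0.873), cadherins (ds, with 0.794 and 1.32), gustatory receptors (Gr59e, above) and mitochondrial ribosomal proteins (mRpL3, with 0.843 and 1.29). No region lay in the 17 glycolysis, 16 actin and tubulin, 8 Hox, 20 neuronal, 59 odorant receptor or 31 histone genes that were eligible. Counts of 0 in lists of this size are near the share of 3.6% over all eligible genes. Some coding region, found in both replicates or not, lay in 7 of the 17 glycolysis and 7 of the 16 actin and tubulin genes. The same held for 3 of the 8 Hox, 2 of the 20 neuronal, 4 of the 59 odorant receptor and 0 of the 31 histone genes. Over all eligible genes it was 2734 of 12369.

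A strong Sima peak at a promoter was more frequent among the host genes than among all eligible genes. An IDR peak lay within 500 bp of a start site in 58 of the 445 host genes (13.0%, interval 10.2 to 16.5), against 6.58% of all eligible genes and 9.22% of the 2289 genes that held only coding regions not found in both. Leaving out the regions within 1000 bp of another IDR peak, it was 45 of 429 host genes (10.5%). Host genes were also longer, with a median of 1774 bp of eligible coding sequence against 1002 bp for all. By that length, the share was 14.7% of 109 host genes against 5.42% of all 6177 at 1000 bp or less, and 11.6% of 138 against 6.55% of 3465 from there to 2000 bp. It was 9.65% of 114 against 8.56% of 1952 from there to 4000 bp, and 17.9% of 84 against 11.0% of 775 above. Without the regions within 1000 bp of another IDR peak, the host share was 9.90%, 7.58%, 9.65% and 17.1% in the same order. The difference from all eligible genes was then small in the middle lengths, though only the host genes were filtered. Genes that held only coding regions not found in both, not filtered, had 8.29%, 8.58%, 9.08% and 12.9%. Part of the difference from all eligible genes was thus shared by genes with any coding region.

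The first and last coding exons held more of the regions than their share of coding sequence. A single coding exon counts as both first and last, and 50 regions (10.9%) lay in one. In the first coding exon lay 122 (26.6%), against 22.2% of the coding regions not found in both and 17.7% of eligible coding sequence, taken at every 200th base. The last coding exon held 180 (39.3%), against 37.0% and 33.6%. In the first 25% of the coding sequence lay 26.9%, against 21.4% and 17.5%, and in the last 25% lay 28.2%, against 29.8% and 28.1%. The median distance to a start site was 1272 bp, against 1413 bp for the coding regions not found in both. The summit base was coding in every transcript that spans it in 389 regions (84.9%), and the 51 bases around each of the 458 summits occurred once in the genome.

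The coding summits were rich in G and C, unlike Sima regions elsewhere. Median G+C within 50 bp of the summit was 56.4% for the 458 regions, 55.4% for the coding regions not found in both and 53.5% over eligible coding sequence. It was 36.6% in introns, 37.6% between genes and 38.6% near start sites for regions found in both replicates, and 33.7% for IDR peaks. In 25 bp windows, G+C was 57.1% at the coding summits and 45.2% and 45.1% at 500 bp to either side of them, while at intronic summits it was 36.6%, against 41.0% and 41.2%. The coding regions not found in both had the same shape, with 55.8% at the summit.

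**Figure D4:**
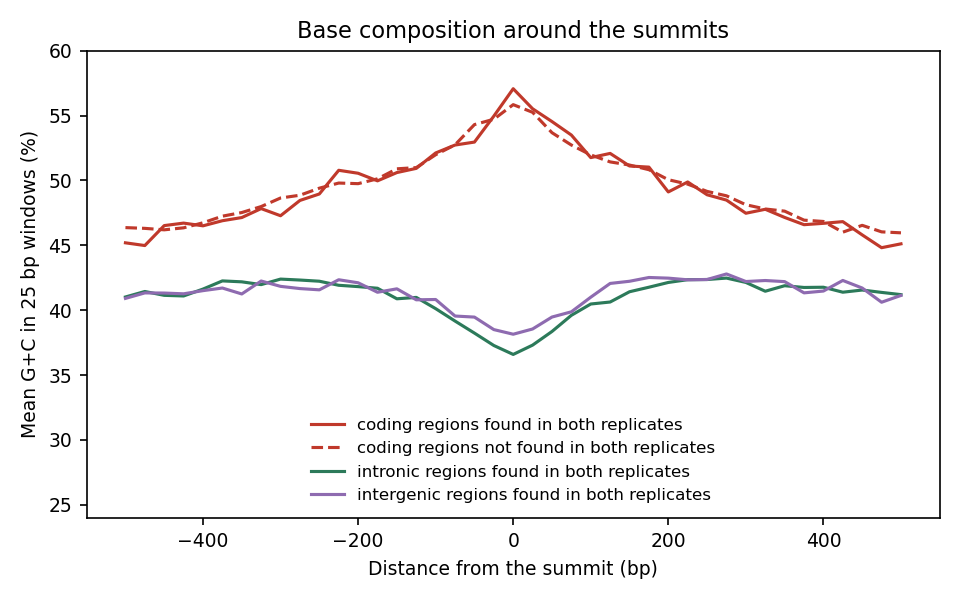
Mean G+C in 25 bp windows (%) by distance from the summit (bp), for 4 sets of regions. Both coding sets peak at the summit, at 57.1% and 55.8%, whereas intronic and intergenic regions found in both replicates dip there, to 36.6% and 38.2%.

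The hypoxia core was not more frequent at these summits than at other coding regions. It lay within 50 bp of 132 of the 458 summits (28.8%, interval 24.9 to 33.1), of 29.2% of the coding regions not found in both, and of 24.3% of eligible coding sequence. Intronic regions found in both replicates had it in 15.9%, all pooled regions in 19.4% and IDR peaks in 13.3%. Regions with the core had a median pooled rank of 9274.5 and a median G+C of 58.4%, and those without had 8744.5 and 55.4%. Of the 12 named regions just below the IDR list, 5 held it, among them spi and RhoGAP71E as printed above, and none of the 3 in the IDR list did. The palindrome CACGTG, which contains the core, lay at 9 summits (1.97%), against 1.56% of eligible coding sequence.

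Other words followed the coding sequence as well. TTAAAA, present at 31.3% of IDR peaks and 23.0% of intronic regions found in both replicates, lay at 3.93% of the coding summits and 3.35% of eligible coding sequence. The E-box CAGCTG lay at 9.39% of coding summits, against 7.65% of eligible coding sequence and 3.41% of intronic regions. The triplet repeat CAGCAGCAG lay at 3.93%, against 2.86% and 0.649%. GAGAGA, bound by GAGA factor, lay at 2.18%, against 2.35% and 4.99%.

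The CTCF-like words AGATGGCGC and AGGTGGCGC, chosen after the sequences of these very regions had been seen, lay at 3 coding summits (0.655%). Pde1c held 2 copies, as printed above, and otp and Ube3a held 1 each, so they were present in 2 of the 3 coding regions of the IDR list. The region in Ube3a, a ubiquitin ligase gene, had ratios of 1.16 and 1.07. The words lay at 0.243% of the coding regions not found in both, 0.269% of eligible coding sequence, 0.383% of all pooled regions and 1.10% of IDR peaks. Intergenic regions found in both replicates had them more often, at 12 of 1030 summits (1.17%), 3 of these with 2 copies.

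The regions were sparser on X than on the autosomes. Per Mb of eligible coding sequence chromosome arms 2L and 2R had 29.3 and 23.7, arms 3L and 3R had 29.6 and 25.1, and X had 15.4, from 51 regions. Chromosome 4 had 30.7 per Mb, from 7 regions. Coding regions not found in both were also sparser on X, at 129 per Mb against 157 to 170 on the large autosomal arms, and 255 on chromosome 4. Among coding regions of rank 1 to 5000, 10 of 129 lay on X (7.75%), while X holds 17.9% of eligible coding sequence. That share was 10.5% at ranks 5001 to 10000 and 15.3% at ranks 10001 to 30000. Of the regions found in both replicates, X held 11.1% of coding, 11.4% of intergenic, 15.9% of start site and 19.7% of intronic ones. It held 15.5% of all pooled regions and 18.2% of IDR peaks. The share of noncoding sequence on X was not measured, so it cannot be told whether a low X share is particular to the coding regions. The embryos were of both sexes, and the part of X copy number in this was not tested.

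**Figure D5:**
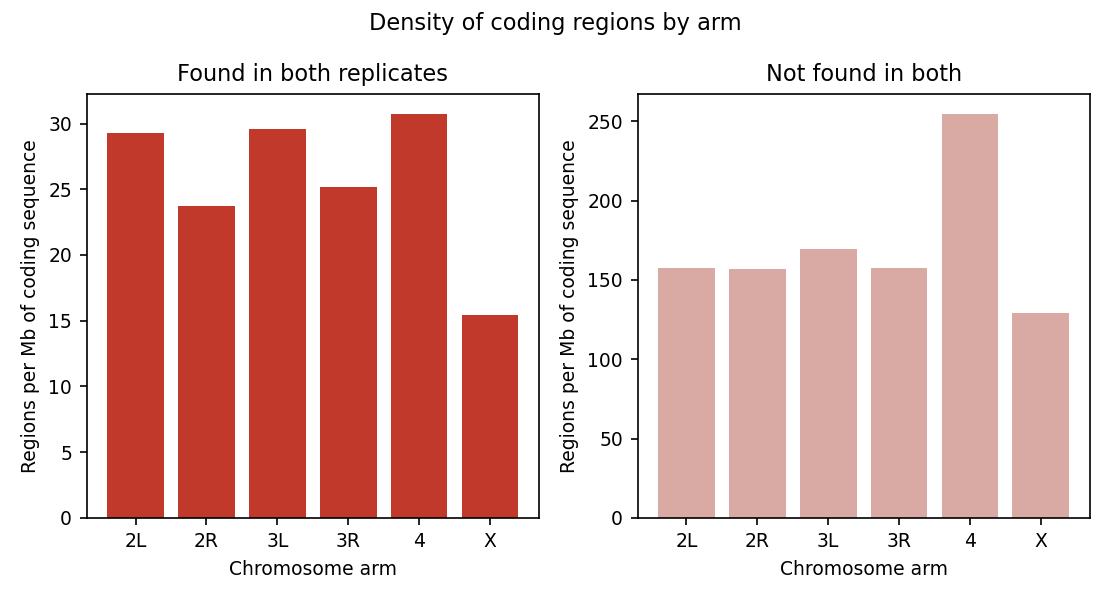
Coding regions per Mb of coding sequence more than 500 bp from a start site, by chromosome arm, for those found in both replicates (left) and not (right); bars are counts over length and start at 0. X is lowest in both panels, at 15.4 and 129 per Mb, and the bar of chromosome 4 at left rests on 7 regions.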

How the data were processed

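Per the labels, ChIP-seq was done on 2 biological replicates of 1 group. The authors deposited relaxed region lists for each replicate and for the pooled reads, each called against 1 control file per the accompanying text files, and a list kept by an IDR threshold. The unit used is the peak caller's signal value per region, as deposited. Not given in the sources used here are the peak caller, its settings, the IDR threshold and the depth. Lists on dm3 were not used. Because each relaxed list was fixed at 30000 regions, it reaches into background, and a match within 100 bp can join weak regions.

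Gene models came from Ensembl release 115 (BDGP6.54) and sequence from the Release 6 genome, with matplotlib 3.10.9, scipy 1.17.1, pandas 2.3.3 and numpy 2.4.6 in Python 3.11.15. The summit base was classed as near a start site (500 bp or less from the first base of any transcript, non-coding ones included), coding, untranslated, intronic or intergenic. Words were counted on either strand in the 101 bases centred on the summit, with any overlap. Host genes are those whose coding sequence holds the summit. Matching was tested on simulated positions. The members, gene lists, words and alternatives were chosen with earlier results of these data known. Named genes are the hosts of the 15 strongest regions, of IDR regions and of 3 or more regions, HIF and hypoxia genes with a region, up to 3 per other list, and those at the limits. A few listed symbols were not counted, and 1 gene that the rule names is not reported here.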

Additional observations from a re-analysis of the deposited data

How the results depend on the processing

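No paired analysis was possible because there was 1 group of 2 replicates. The number of coding regions found in both replicates was 274 with a match within 50 bp, 703 within 200 bp, 289 over 1000 bp from start sites, 268 among the strongest 10000 and 702 with the pooled summit inside a region of each replicate list. Requiring a match in 1 replicate only, it was 1465 to 1627. The median over regions of the mean replicate ratio, 1.00, became 1.02 over 250 bp and 0.983 over 1000 bp from start sites, 1.11 among the strongest 10000, and 1.00 to 1.05 with 1 replicate. Genes with 3 or more regions numbered 1, and 0 at 50 bp, over 1000 bp, among the strongest 10000 and where every transcript had to be coding; 5 at 200 bp, 4 by overlap and 9 to 14 with 1 replicate. The share with the hypoxia core was 14.2% within 25 bp and 46.5% within 100 bp, as the window is shorter or longer. The IDR count stayed between 2 and 4, median G+C between 55.4% and 56.9% and the last-exon share between 37.2% and 40.3% in all alternatives run. The correlation without IDR regions and the promoter share without regions near IDR peaks were added after seeing the data. Depth is unknown, no control was analysed here, the antibody saw the tagged transgene in mixed cells, and neighbouring summits share fragments of 200 to 800 bp.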
